A study of Mus musculus with 6 samples.

Results

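The proximal Dlk1-Dio3 miRNAs are the strands of 10 precursors that lie around the gene Rtl1 on mouse chromosome 12. They were chosen by name (mmu-miR-337, mmu-miR-540, mmu-miR-665, mmu-miR-431, mmu-miR-433, mmu-miR-127, mmu-miR-434, mmu-miR-136, mmu-miR-341 and mmu-miR-370) and by position on this chromosome, after the same libraries had shown them at a higher level in nephron progenitors than in whole kidney. The members were thus selected on this contrast. Their levels in the 2 groups are given as a description, and nothing is read from how many pass a threshold. The deposited table holds 17 mature strands of these 10 precursors, out of 535 mature miRNAs and 436 precursors in all. The partner strands miR-337-3p, miR-665-5p and miR-341-5p were not analysed here. Each of the 17 strands has a single row, and all 17 passed the filter used here, more than 10 counts when the 6 libraries are added up. For 4 of them, miR-540-5p, miR-665-3p, miR-431-3p and miR-370-5p, the whole kidney libraries together held only 6 to 9 counts, so these passed the filter only with the counts of the group in which they are high.

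Small RNA was sequenced from kidneys of wild-type CD1 embryos at E15.5, with 3 libraries of a cell fraction enriched for nephron progenitors (MNP) and 3 of whole kidney (MWK). The progenitors were what remained after digested kidney cells had been depleted with antibodies to CD140a, CD105, Epcam and Ter119, and the whole kidney samples were the remnants of the kidneys after that limited digestion. Every replicate pooled embryos of a single litter, both groups came from 3 litters, and the progenitor isolate is known to keep some renal stroma. RNA was purified with a Micro kit in progenitors and a Mini kit in whole kidney, so that the effects of the kit, of the isolation and of the cell type cannot be told apart.

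The region between Dlk1 and Dio3 is imprinted, meaning that each of its genes is read from the chromosome of one parent. Rtl1, a gene derived from a retrotransposon and needed for the fetal capillaries of the placenta, is expressed from the paternal chromosome, while the noncoding RNAs Meg3, Rian and Mirg and the miRNAs of the region are expressed from the maternal one. Several of these miRNAs are cut from a transcript antisense to Rtl1, match its mRNA without a mismatch and guide its cleavage, and the miRNAs of the region as a whole are known for high levels in the embryo and, after birth, in the brain.

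The positions of the 10 precursors were the same in the deposited table and in RefSeq for GRCm38.p6, the same build as mm10, and all lie on the plus strand. In the GENCODE annotation of that build, Rtl1 lies on the minus strand (109589193 to 109600330) and has its coding sequence in one exon (109590172 to 109595403). mir-431 (109590447 to 109590537), mir-433 (109591715 to 109591838), mir-127 (109592846 to 109592915), mir-434 (109594506 to 109594599) and mir-136 (109595327 to 109595388) all lie antisense to that coding sequence. mir-337 (109585789 to 109585885), mir-540 (109586080 to 109586146) and mir-665 (109586314 to 109586407) lie between Meg3 (109541001 to 109571726) and Rtl1, in no annotated gene other than their own. mir-341 (109611500 to 109611595) and mir-370 (109618258 to 109618336) lie in introns of Rian (109603940 to 109661716), on its strand.

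**Figure D1:**
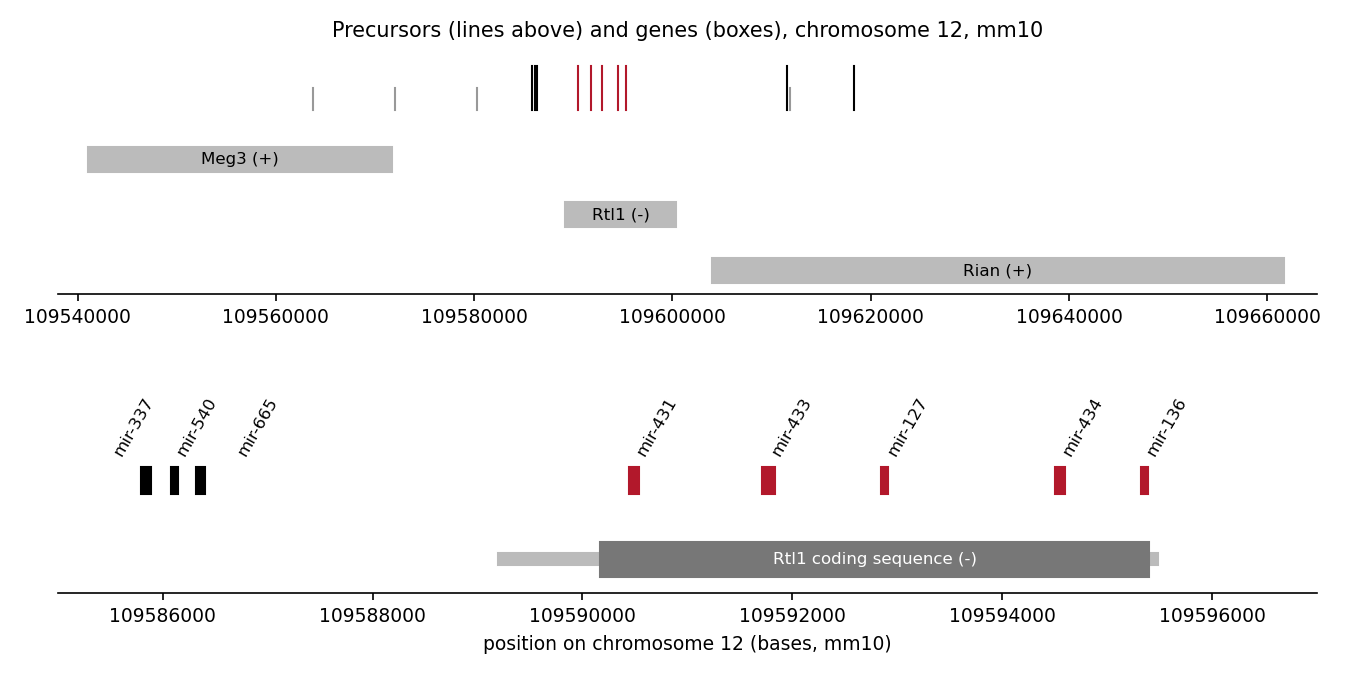
Map of the region on chromosome 12 in mm10, with the position in bases on the horizontal axis of both panels. In the upper panel tall lines are the 10 precursors (red, antisense to Rtl1; black, the others), short grey lines are other precursors of the interval and boxes are genes; in the lower panel, a closer view, the 5 red precursors all fall within the coding sequence of Rtl1 (dark box; thin box, untranslated part of the exon).

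With one value for each mature miRNA, libraries MNP1, MNP2 and MNP6 held 393951, 436112 and 333850 counts in total, and libraries MWK1, MWK2 and MWK6 held 349241, 360221 and 355848. MNP6 and MWK6 match the title of no single sample and were used by their group alone. The 17 strands held 3278, 7109 and 6702 of these counts in MNP1, MNP2 and MNP6, or 0.832%, 1.63% and 2.01%. In MWK1, MWK2 and MWK6 they held 1403, 1417 and 1691 counts, or 0.402%, 0.393% and 0.475%. The progenitor libraries were all above the whole kidney libraries and differed more among themselves, with MNP1 lowest.

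In CPM, counts scaled with TMM factors so that libraries of unequal depth can be compared, the sum of the 17 strands was 8071, 15487 and 17612 in MNP1, MNP2 and MNP6. In MWK1, MWK2 and MWK6 the sum was 4219, 4462 and 4936 CPM. The progenitor mean of 13723 ± 5009 CPM was 3.02 times the whole kidney mean of 4539 ± 365 CPM (SD over 3 libraries each). It was 3.65-fold without MNP1 and 2.60-fold without MNP6, and the lowest progenitor library was 1.64 times the highest whole kidney library. These are bulk samples, in which fewer cells of a type and less RNA per cell cannot be told apart.

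Of the 17 strands, 17 were past the threshold and higher in progenitors (quasi-likelihood test of edgeR, Benjamini-Hochberg adjusted p of at most 0.05), beside 102 of the 525 miRNAs tested, or 19.4%. Under the alternatives tried the count was from 7 to 17, with 12 when MNP6 or MWK1 was left out and 7 on the 4 numbered libraries without a block. For 15 of the 17 every progenitor library was above every whole kidney library in CPM, beside 123 of the 525, or 23.4%; miR-433-5p and miR-370-5p were the exceptions. Nothing is read from either count, since the members were selected on this contrast. Log2 fold changes, progenitors relative to whole kidney, were from 1.27 to 2.45 with a median of 1.76, and the median over all miRNAs tested was -0.011. The 13 strands that would pass the filter on whole kidney counts alone had a median of 1.58.

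**Figure D2:**
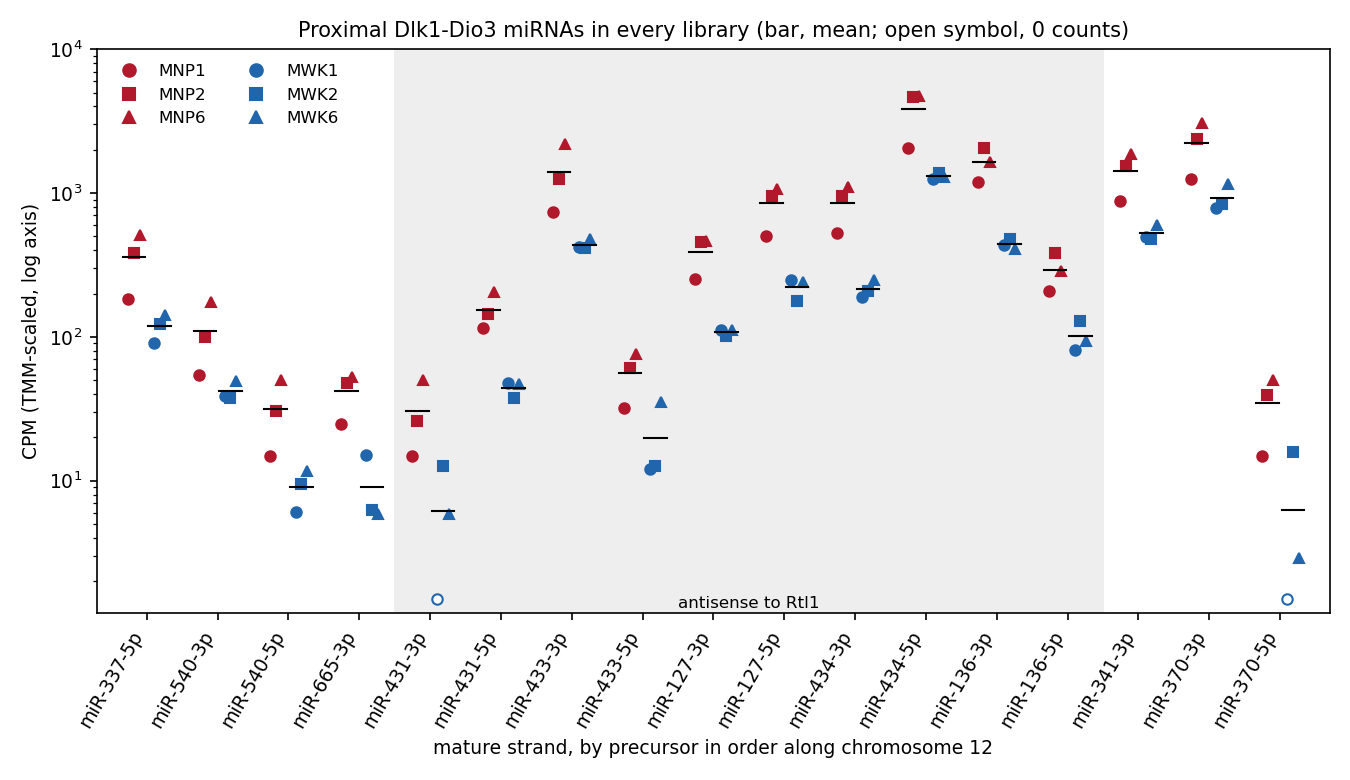
Level of each of the 17 strands in CPM (TMM-scaled, log axis) in the 3 nephron progenitor libraries (red) and the 3 whole kidney libraries (blue), ordered along the chromosome; short bars are group means and open symbols are libraries with 0 counts. The red points lie above the blue ones for all strands except miR-433-5p and miR-370-5p, and MNP1 is the lowest red point in all 17.

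The 10 strands antisense to Rtl1 held most of the level. Their sum was 5645, 10945 and 11828 CPM in MNP1, MNP2 and MNP6 and 2794, 2954 and 2957 CPM in MWK1, MWK2 and MWK6, a 3.26-fold difference of means. The other 7 strands summed to 2425, 4542 and 5784 CPM and to 1425, 1508 and 1979 CPM in the same order, a 2.60-fold difference. In both sums the groups did not overlap.

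miR-434-5p was the most abundant strand, ranked 42 of the 535 mature miRNAs by mean CPM in progenitors and 79 in whole kidney. It was at 2058, 4644 and 4751 CPM in MNP1, MNP2 and MNP6 and at 1251, 1385 and 1287 CPM in MWK1, MWK2 and MWK6. MNP2 and MNP6 were close to each other and MNP1 stood between them and whole kidney. Its log2 fold change was 1.55 (standard error 0.26). The other strand of that precursor, miR-434-3p, was at 524, 958.5 and 1096 CPM and at 189, 208 and 248 CPM in the same order, again with no overlap. Its log2 fold change was 2.00 (standard error 0.27).

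miR-136-3p comes from the precursor nearest to the start of the Rtl1 coding sequence. It was at 1199, 2067 and 1637 CPM in MNP1, MNP2 and MNP6 and at 433, 479 and 409 CPM in MWK1, MWK2 and MWK6 (log2 fold change 1.89, standard error 0.22). Its highest library was MNP2, whereas MNP6 was highest for every strand outside mir-136. miR-136-5p had the same order of progenitor libraries, at 207, 383 and 286 CPM and at 81.2, 129 and 93.4 CPM (log2 fold change 1.53, standard error 0.29). The groups overlapped in neither strand.

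miR-127, among the earliest miRNAs shown to be imprinted, had both strands in quantity. miR-127-5p was at 505, 961 and 1075 CPM in MNP1, MNP2 and MNP6 and at 247, 176 and 239 CPM in MWK1, MWK2 and MWK6 (log2 fold change 1.94, standard error 0.28). miR-127-3p was at 251, 453 and 465 CPM and at 111, 101 and 111 CPM in that order, and the log2 fold change was 1.85 (standard error 0.27). In both strands the lowest progenitor library was more than 2 times the highest whole kidney library.

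miR-433-3p, a strand linked to fibrosis in the adult kidney, was at 739, 1246 and 2186 CPM in MNP1, MNP2 and MNP6 and at 421, 412 and 482 CPM in MWK1, MWK2 and MWK6. Its progenitor libraries spread more widely than for miR-127 or miR-434, and all were above whole kidney (log2 fold change 1.66, standard error 0.32). miR-431-5p, known to act in muscle stem cells, was at 116, 144 and 205 CPM and at 48.1, 37.8 and 46.7 CPM in that order, and the log2 fold change was 1.79 (standard error 0.30). The minor strands of these precursors rested on few counts. miR-433-5p had 13, 28 and 29 counts in progenitors and 4, 4 and 12 in whole kidney, where MWK6 was above the CPM of MNP1. miR-431-3p had 6, 12 and 19 counts in progenitors and 0, 4 and 2 in whole kidney. A count of 3, set here as a floor although lower counts occur, was from 6.54 to 9.45 CPM, a limit that covers counting error only.

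The mature sequences show how these strands differ. They are printed 5′ to 3′ from RefSeq for GRCm38.p6, which holds all 17, with the seed, bases 2 to 8, in capitals. The first set gives the strands of the antisense precursors with the most counts.
mmu-miR-434-5p: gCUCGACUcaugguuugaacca
mmu-miR-434-3p: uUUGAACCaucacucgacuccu
mmu-miR-136-3p: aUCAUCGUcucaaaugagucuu
mmu-miR-136-5p: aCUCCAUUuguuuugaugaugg
mmu-miR-127-5p: cUGAAGCUcagagggcucugau
mmu-miR-127-3p: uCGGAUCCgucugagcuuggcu
mmu-miR-433-3p: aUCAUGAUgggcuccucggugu
mmu-miR-431-5p: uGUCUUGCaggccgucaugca
The 17 strands have 17 different seeds, are 20 to 23 bases long and have a GC content of 36.4% to 68.2%. Of the other miRNAs tested with a sequence in RefSeq, miR-1193-3p alone has the seed of a member, that of miR-370-5p.

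All 10 strands of these 5 precursors match the Rtl1 mRNA in GENCODE over their full length, at 1 site each and in the coding sequence of 5232 bases, while none of the other 7 strands has such a site. This follows from the genomic position. miR-136-3p pairs at coding bases 17 to 38, miR-434-5p at 855 to 876, miR-127-5p at 2529 to 2550, miR-433-3p at 3602 to 3623 and miR-431-5p at 4925 to 4945, counted from 1 at the start codon. The sites of these strands, the more abundant one of each precursor, are printed 5′ to 3′ as on the mRNA, with the bases that pair with the seed in capitals.
Rtl1 site of miR-136-3p: aagactcatttgagACGATGAt
Rtl1 site of miR-434-5p: tggttcaaaccatgAGTCGAGc
Rtl1 site of miR-127-5p: atcagagccctctgAGCTTCAg
Rtl1 site of miR-433-3p: acaccgaggagcccATCATGAt
Rtl1 site of miR-431-5p: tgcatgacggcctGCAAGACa
These span the coding sequence from its start to near its end. The Rtl1 mRNA itself was not analysed here.

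Of the members between Meg3 and Rtl1, miR-337-5p was at 182, 381 and 507 CPM in MNP1, MNP2 and MNP6 and at 90.2, 123 and 143 CPM in MWK1, MWK2 and MWK6 (log2 fold change 1.58, standard error 0.34). miR-540-3p was at 54.2, 100.2 and 176 CPM and at 39.1, 37.8 and 49.6 CPM in that order, and the log2 fold change was 1.37 (standard error 0.40), or 0.84 without MNP6; it was not past the threshold without MNP6, MWK1 or MWK2. For miR-540-3p the groups did not overlap, and MNP1 was at only 1.09 times MWK6. miR-540-5p had 6, 14 and 19 counts in progenitors and 2, 3 and 4 in whole kidney. miR-665-3p had 10, 22 and 20 counts and 5, 2 and 2 in the same order. Both stood near the floor of 3 counts in whole kidney.

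The 3p strands of the members within Rian were more abundant than the member strands between Meg3 and Rtl1. miR-370-3p, a strand known to act on fatty acid oxidation in liver cells, was at 1258, 2390 and 3075 CPM in MNP1, MNP2 and MNP6 and at 782, 838 and 1165 CPM in MWK1, MWK2 and MWK6. Its groups came close, with MNP1 at 1.08 times MWK6, and its log2 fold change was 1.27 (standard error 0.28). miR-341-3p was at 876, 1553 and 1874 CPM and at 493, 479 and 601 CPM in that order, with no overlap, and the log2 fold change was 1.45 (standard error 0.26). miR-370-5p had 6, 18 and 19 counts in progenitors and 0, 5 and 1 in whole kidney, and its log2 fold change of 2.45 (standard error 0.74) rests on those few counts, being 1.89 without MWK1 and 4.27 without MWK2. The main strands of these precursors outside Rtl1 are printed in the same way. Their seeds, like those of all 17 strands, differ from one another.
mmu-miR-337-5p: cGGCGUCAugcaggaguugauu
mmu-miR-540-3p: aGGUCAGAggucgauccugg
mmu-miR-665-3p: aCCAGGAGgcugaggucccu
mmu-miR-341-3p: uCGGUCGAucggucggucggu
mmu-miR-370-3p: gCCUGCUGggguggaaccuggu

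The stretch searched for members, from within Meg3 to between Rian and the distal cluster of the region, holds 5 more strands that were not among the names chosen. miR-493-5p, from the precursor next to mir-337, was at 39.4, 98.0 and 116 CPM in MNP1, MNP2 and MNP6 and at 30.1, 18.9 and 20.4 CPM in MWK1, MWK2 and MWK6. Its groups did not overlap and its log2 fold change was 1.85 (standard error 0.42). miR-770-3p and miR-673-3p, at 16 counts or fewer in every library, had log2 fold changes of 1.54 (standard error 0.54) and 2.23 (standard error 0.70), with groups that overlapped for the former, and miR-493-3p, at 7 or fewer, had 0.75 (standard error 0.74) with overlapping groups. miR-770-3p, miR-673-3p and miR-493-3p passed the filter only with their progenitor counts, and miR-1188-5p did not pass it. On the other side, miR-379-5p from the first precursor of the distal cluster (109709060 to 109709125) was at 6579, 11618 and 12535 CPM in MNP1, MNP2 and MNP6 and at 2923, 3183 and 3164 CPM in MWK1, MWK2 and MWK6. This strand too was lowest in MNP1 within the progenitors and above whole kidney throughout. Its partner miR-379-3p was at 24.6, 19.6 and 42.0 CPM in progenitors and at 6.01, 18.9 and 23.4 CPM in whole kidney, with overlap, and its log2 fold change of 0.80 (standard error 0.51) was not past the threshold.

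The proximal and the distal miRNAs of the region were set side by side through the ratio of their counts, given with no p since the proximal ones were selected on this contrast. The distal miRNAs were the 51 strands from mir-379 onward, downstream of Rian. The proximal strands had 39.9%, 42.7% and 40.2% as many counts as the distal ones in MNP1, MNP2 and MNP6. In MWK1, MWK2 and MWK6 the ratio was 41.1%, 39.2% and 40.7%. The groups overlapped, with means of 41.0% ± 1.53 and 40.3% ± 1.03 (SD, n = 3 each), a difference of 0.629 points. The distal strands summed to 20216, 36256 and 43762 CPM in MNP1, MNP2 and MNP6 and to 10257, 11389 and 12131 CPM in MWK1, MWK2 and MWK6. Of the 49 distal strands tested 35 were past the threshold and higher, beside 102 of the 525 miRNAs tested, or 19.4%. The median log2 fold change of the 49 was 1.73, and both values are given as a description.

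The share of the 5p strand among the counts of both strands does not depend on the level of a precursor, and 7 precursors have both strands in the table and at least 10 counts over both strands together in every library. mir-434, mir-431 and mir-127 gave mostly the 5p strand and mir-433, mir-136, mir-540 and mir-370 mostly the 3p strand, in all 6 libraries. For mir-434 the 5p share was 79.7%, 82.9% and 81.3% in MNP1, MNP2 and MNP6, against 86.8% in MWK1, 87.0% in MWK2 and 83.8% in MWK6. It was lower in every progenitor library than in any whole kidney library, by a mean of 4.60 points (81.3% ± 1.60 and 85.9% ± 1.77, SD, n = 3 each; exact two-sided permutation test, p = 0.1, adjusted p = 0.2 over 4 precursors). These 4, mir-434, mir-136, mir-127 and mir-433, are those whose strands would both pass the count filter on either group alone, a set chosen after the values were seen; over the 7 precursors, as planned and with the 3 given below without a p, the adjusted p was 0.233 for mir-434 and mir-136. For mir-136 the share was 14.7%, 15.6% and 14.9% in progenitors and 15.8%, 21.2% and 18.6% in whole kidney (exact p = 0.1, adjusted p = 0.2 over the 4). For mir-540 it was 21.4%, 23.3% and 22.1% in progenitors and 13.3%, 20.0% and 19.0% in whole kidney, given without a p because miR-540-5p passed the count filter only with its progenitor counts.

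The groups did not overlap in 2 of the 4 precursors, beside 28 of the 89 miRNAs of the whole table under the same rule, or 31.5%. Over the 7, with mir-540, it was 3, beside 36 of 116 miRNAs with both strands and as many counts, or 31.0%, and nothing is read from counts this small. No precursor passed a threshold of 0.05, which cannot be reached with 3 libraries a group, where 0.1 is the lowest possible p. Counting error was wide for mir-540, where MWK1 had 15 counts and a 95% Wilson interval from 3.74% to 37.9%. It was narrower for mir-434, from 83.5% to 89.6% in MWK1 and from 77.2% to 82.0% in MNP1. Even so, the mir-434 interval of MWK6 (80.5% to 86.7%) overlapped that of every progenitor library. That of MNP2 (81.4% to 84.3%) overlapped the interval of every whole kidney library. For mir-136 the interval of every progenitor library overlapped that of every whole kidney library, as with MNP2 (13.6% to 17.9%) and MWK1 (11.1% to 22.0%). The 5p share was 68.2% ± 1.52 in progenitors and 67.0% ± 2.89 in whole kidney for mir-127 (exact p = 0.7, adjusted p = 0.933 over the 4, or 0.817 over the 7). It was 84.6% ± 4.13 and 88.0% ± 12.5 for mir-431, which has only 16 to 18 counts in the whole kidney libraries. For mir-433 it was 4.06% ± 0.654 and 4.17% ± 2.26 (exact p = 1, adjusted p = 1), and for mir-370 it was 1.46% ± 0.257 and 0.698% ± 1.00. mir-431 and mir-370 are given without a p for the same reason as mir-540, through miR-431-3p and miR-370-5p. The hairpins of the 3 precursors with shares that did not overlap are printed from RefSeq for GRCm38.p6 with both mature strands in capitals, the 5p strand first.
mmu-mir-434 hairpin: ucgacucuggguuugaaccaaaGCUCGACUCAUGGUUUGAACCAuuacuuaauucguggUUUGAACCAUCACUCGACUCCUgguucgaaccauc
mmu-mir-136 hairpin: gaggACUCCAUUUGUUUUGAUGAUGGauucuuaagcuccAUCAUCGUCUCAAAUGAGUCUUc
mmu-mir-540 hairpin: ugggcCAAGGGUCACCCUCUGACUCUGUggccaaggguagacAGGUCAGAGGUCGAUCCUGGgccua

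**Figure D3:**
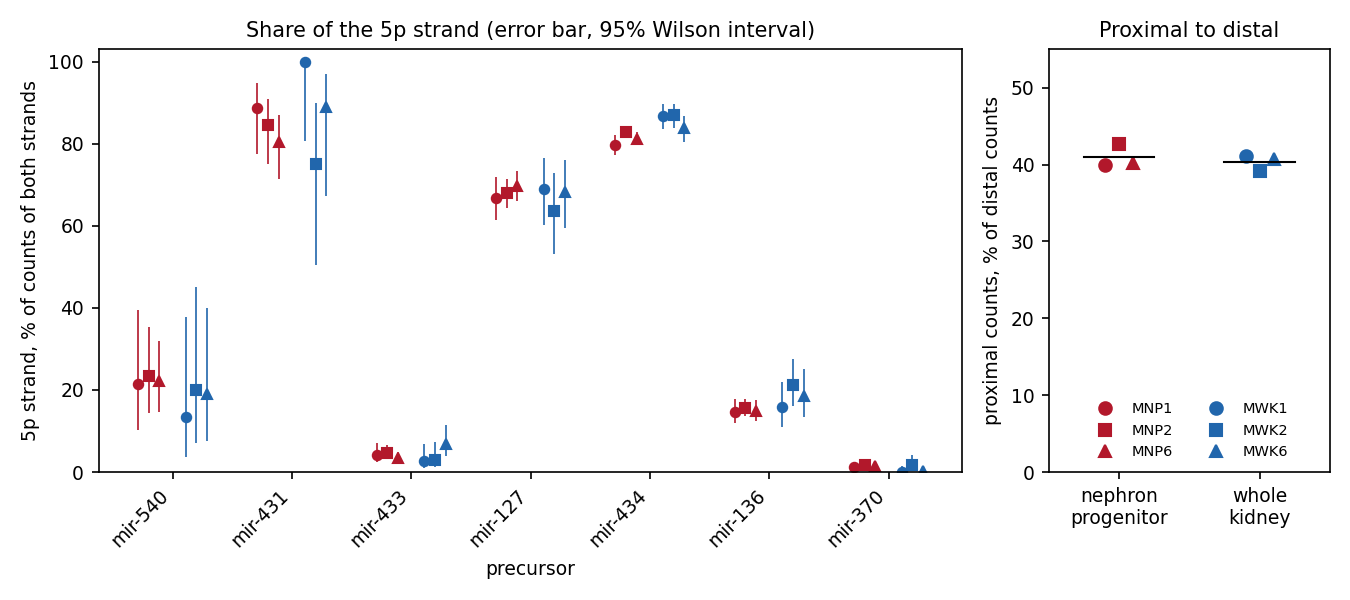
Left, share of the 5p strand in percent of the counts of both strands for 7 precursors in every library, with 95% Wilson intervals that cover counting error only; right, counts of the 17 proximal strands in percent of those of the 51 distal strands, with group means as bars. Progenitor (red) and whole kidney (blue) libraries do not overlap for mir-434, mir-136 and mir-540 and overlap for the other precursors and for the ratio.

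The make-up of the member counts was much alike in the groups. mir-434 had the largest part in each library, from 31.1% to 36.2% of the member counts. mir-370 followed in all of them except MNP1 and MNP2, with 15.8%, 15.7% and 17.7% in the progenitor libraries, against 18.5%, 19.1% and 23.7% in the whole kidney libraries, each in the order of their numbers. mir-127 had 9.37%, 9.13% and 8.74% in progenitors and 8.48%, 6.21% and 7.10% in whole kidney. So mir-370 had a larger part in every whole kidney library and mir-127 in every progenitor library, a difference given with no test because it comes from the same contrast. mir-136 had 17.4%, 15.8% and 10.9% in progenitors and 12.2%, 13.6% and 10.2% in whole kidney, lowest in the library numbered 6 of each group.

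The progenitor libraries differed among themselves by as much as some differences between groups. MNP1 was the lowest of the 3 in all 17 strands, and MNP6 was the highest in 15. The sum of the distal strands was likewise lowest in MNP1 and highest in MNP6. This order was not counted over all miRNAs tested, so it is not given as a trait of the members. MNP2 was 1.24 to 2.65 times MNP1 over the strands, with a median of 1.85, and MNP6 was 1.37 to 3.38 times MNP1, with a median of 2.31. Without MNP1 the median log2 fold change of the 17 strands was 1.97, and without MNP6 it was 1.51.

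The departure of the libraries numbered 6 from the others was compared between the groups. For the 10 members with a mean of at least 50 counts, the difference of log2 CPM between that library and the mean of the others of its group had a correlation of 0.752 between progenitors and whole kidney (Pearson's r across strands, which share libraries and are not replicates). Over the 178 tested miRNAs of that depth with a sequence it was 0.385, and for library 2 against library 1 it was 0.210 over the 10 members and 0.266 over the 178 miRNAs. miR-370-3p, with 68.2% GC, was higher by 0.82 in MNP6 and by 0.52 in MWK6 on the log2 scale, and miR-136-3p, with 36.4% GC, differed by 0.06 and -0.15, while miR-433-3p, with 54.5% GC, was higher by 1.18 and 0.21. Across the 10 members this difference had a correlation with GC content of 0.665 in progenitors and 0.746 in whole kidney, and across the 178 miRNAs of 0.392 and -0.015. The log2 fold change itself had a correlation with GC content of -0.476 across the 10 members and of 0.118 across the 178 miRNAs.

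The miRNAs most like the members in their pattern were their distal neighbours. Likeness was Pearson's r between log2 CPM of a miRNA and log2 of the summed CPM of the 17 strands over 6 libraries, for the 193 other miRNAs with a mean of at least 50 counts. The highest were miR-411-5p (0.995), miR-379-5p (0.994), miR-411-3p (0.994), miR-134-5p (0.993) and miR-300-3p (0.992). After the group means were subtracted, which leaves the spread between libraries of one group, they were miR-379-5p (0.991), miR-411-3p (0.985), miR-411-5p (0.983), miR-300-3p (0.976) and miR-485-5p (0.976). All of these are distal strands of the same region. The median r of the 16 distal candidates was 0.981, or 0.928 after subtraction, and that of the other candidates was -0.545, or -0.357. Before subtraction r includes the difference between groups on which the members were selected, so those values are a description only.

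Markers of other kidney cells moved with the groups as well, and their part in the levels above was not tested. Of all 525 miRNAs tested, 102 were higher and 90 lower past the threshold, to be set beside the count of each list. The epithelial list (5 miRNAs, 7 strands) was lower past the threshold in 7 of 7 strands. It had sums of 227, 386 and 89.3 CPM in MNP1, MNP2 and MNP6 and of 23975, 25414 and 21834 CPM in MWK1, MWK2 and MWK6. Its most abundant strand was miR-200a-3p (log2 fold change -6.86, standard error 0.38), and miR-141-3p and miR-200b-5p were at 0 counts in every progenitor library. miR-200c-3p had 2, 4 and 4 counts in MNP1, MNP2 and MNP6. miR-141-3p, miR-200b-5p and miR-200c-3p thus passed the filter only with their whole kidney counts. The endothelial miR-126a was lower in 2 of 2 strands, with sums of 419, 595 and 578 CPM in progenitors and of 20132, 21311 and 18150 CPM in whole kidney, nearly all of it miR-126a-3p. Both sums were far lower in every progenitor library than in any whole kidney library.

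The stromal, smooth muscle and pericyte list (5 miRNAs, 10 strands, of which miR-199a-3p and miR-199b-3p hold the same counts and were summed once) had 1 strand higher and 2 lower past the threshold, with a median log2 fold change of 0.20. Its sums were 37322, 49543 and 50329 CPM in MNP1, MNP2 and MNP6 and, in whole kidney, 76323, 88177 and 73391 CPM in MWK1, MWK2 and MWK6, with miR-143-3p the most abundant (log2 fold change -1.33, standard error 0.15). Without miR-143-3p the sums were 16053, 21449 and 24705 CPM in progenitors and 16007, 17171 and 16343 CPM in whole kidney, with overlap, and the strand higher past the threshold was miR-199b-5p (log2 fold change 0.79, standard error 0.16). None of the strands of the list was at 0 in progenitors. The muscle list had 4 of 7 miRNAs in the table, 1 of 4 strands higher past the threshold, and sums of 327, 460 and 142 CPM in progenitors and of 75.2, 139 and 61.3 CPM in whole kidney. Its most abundant strand, miR-206-3p, which is specific to skeletal muscle, was at 187, 281 and 65.7 CPM in MNP1, MNP2 and MNP6 and at 0, 15.7 and 2.92 CPM in MWK1, MWK2 and MWK6. This was the strand past the threshold. With 0, 5 and 1 counts in MWK1, MWK2 and MWK6, it passed the filter only with its progenitor counts.

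Of the erythroid strands 5 of 7 were lower past the threshold, among them miR-486a-5p and miR-486b-5p, which hold the same counts. Only 5 of the 7 strands are distinct in their counts, and strands with equal counts were summed once. The sums were 391, 283 and 176 CPM in progenitors and 1495, 1486 and 762 CPM in whole kidney, with miR-451a the most abundant. The leukocyte list (4 miRNAs, 6 strands) had 1 strand higher past the threshold, miR-223-5p. That strand had 4, 8 and 7 counts in MNP1, MNP2 and MNP6 and 0 in every whole kidney library, so it passed the filter only with progenitor counts. The sums of the list were 150.2, 159 and 84.1 CPM in progenitors and 111, 117 and 73.0 CPM in whole kidney, with overlap. Its most abundant strand, miR-142a-3p, was not past the threshold. Of the neural list, with 2 of 3 miRNAs in the table, 2 of 3 strands were lower, with sums of 93.6, 100.2 and 89.3 CPM in progenitors and of 4243, 4881 and 4078 CPM in whole kidney, almost all miR-9-5p. miR-9-3p, the other strand that was lower, had 0, 0 and 1 counts in MNP1, MNP2 and MNP6. It passed the filter only with its whole kidney counts. In progenitors the sums of the stromal, smooth muscle and pericyte list and of the endothelial list were lowest in MNP1, as the member sum was. The sums of the other lists were lowest in MNP6, and the erythroid one was highest in MNP1. What lies behind these orders was not tested.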

How the data were processed

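After adapter trimming with BBDuk, the authors mapped reads to mm10 with Bowtie2 2.2.3, used miRDeep2 to quantify the known miRNAs of miRBase and deposited unscaled estimated counts, in rows that pair a mature miRNA with one of its precursors. The submitters' processing notes also name BWA and DESeq2 1.18.1. Of 792 rows, 3 hold fractions, and these expected counts were rounded to whole numbers; the number of value columns not used is 0. Where a mature miRNA has several rows, its highest count per library was used. The 525 miRNAs whose counts add up to more than 10 were scaled with TMM and fitted with edgeR 4.0.16 (quasi-likelihood test, no block, Benjamini-Hochberg adjustment) in R 4.3.3, and standard errors are log2 fold changes over the root of their F statistics. Log2 CPM used a prior count of 2. Arm shares were compared with exact permutation tests over libraries, as was the ratio to distal miRNAs, for which no p is given, in Python 3.11.15, and Wilson intervals came from scipy 1.17.1. Figures were drawn with matplotlib 3.10.9.

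The steps were tested on simulated data of 510 miRNAs. There 52.3% of 2-fold and 88.2% of 4-fold changes were recovered, and 3.40% of calls were false. Alternatives were DESeq2 1.42.0, limma-voom (limma 3.58.1), library totals, DESeq2's size factors in edgeR, other filters, sums over rows, the 10 most abundant miRNAs left out, the replicate block and each library left out in turn. Named miRNAs are every member strand, every other strand of the interval, the 5 most alike by each measure, the most abundant strand of each marker list and, chosen after their values were seen, strands set beside these. The members and the lists were chosen with earlier results of these data known. The labels call the replicates biological, and the p-values measure the spread between these libraries.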

Additional observations from a re-analysis of the deposited data

How the results depend on the processing

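The number of member strands past the threshold and higher in progenitors was 17 of 17 with library totals (beside 23.0% of all miRNAs in that fit), DESeq2's size factors (19.6%), no filter (18.7%), sums over rows (18.9%) and without the 10 most abundant miRNAs (19.8%), 16 with DESeq2 (16.4%), 15 with limma-voom (17.5%) and 12 of the 12 that have over 10 counts in each library (25.4%). Library totals moved the median of all miRNAs to 0.19 and that of the members to 1.97. Leaving out a library gave 12 to 17 (beside 14.8% to 21.4%), with 12 without MNP6 or MWK1 and 14 without MNP2, MWK2 or MWK6; the strands lost were among miR-540-3p, miR-540-5p, miR-431-3p, miR-433-5p and miR-370-5p, which have few counts. With the replicate block on the 4 numbered libraries it was 12 (14.6%), and without the block on the same libraries 7 (11.9%), a smaller set of libraries by construction. The strands lost without the block included miR-434-5p, miR-370-3p, miR-337-5p and miR-136-5p, which have more counts. In that fit their log2 fold changes were 1.33, 1.15, 1.39 and 1.48. Deviations from the group mean of libraries 1, 2 and 6 had correlations of 0.142, 0.041 and 0.223 between groups over 525 miRNAs, and nothing in the labels says that equal numbers mark one litter. The column number as a replicate block over 6 libraries, chosen after seeing the data, gave 17 (20.8%). No member had a log2 fold change below 0 under these alternatives. Leaving out single libraries, the difference in 5p share, progenitors minus whole kidney, was from -5.62 to -3.81 points for mir-434, from -4.84 to -2.12 for mir-136 and from 2.76 to 6.09 for mir-540. It was from -0.447 to 2.19 for mir-127, below 0 without MWK2, from -9.88 to 2.62 for mir-431, above 0 without MWK1, from -0.809 to 1.19 for mir-433, above 0 without MWK6 and, at 0.237, without MNP6, and from 0.410 to 1.33 for mir-370. The ratio to the distal miRNAs differed by -0.248 to 1.15 points, below 0 without MNP2; the cause of these changes of sign was not tested. A minimum of 50 counts left 5 precursors, and keeping those whose strands pass the filter in either group alone, chosen after seeing the data, left 4 with the same differences.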
